A study of Mus musculus with 2 samples.

Results

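The 38 apoptosis genes described here are a list of symbols covering the Bcl2 family, caspases, factors released from or assembled at mitochondria, inhibitor of apoptosis proteins and death receptors. They were taken by Ensembl identifier from tables of 43346 genes, 21474 of them annotated as protein-coding, and each of the 38 was found once. The tables hold total RNA sequencing of forebrain from B6NCrl mouse embryos at 16.5 days of gestation, with tissue of both sexes pooled. RNA longer than 200 nt was used, 10 ng per library, with spike-in RNAs added. There is 1 group with 2 biological replicates, each a pool of embryos (41 embryos in replicate 2, a number not given in the labels for replicate 1), so levels and the spread between pools can be described and no conditions can be compared. Replicate 2 held 26957198 expected counts on genes and replicate 1 held 31211128. Values are TPM, which is scaled for transcript length and may be compared between genes, and errors are SD over n = 2.

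Apoptosis removes surplus progenitors and neurons while the forebrain is built. In the mitochondrial pathway, BH3-only proteins sense stress and act on the anti-apoptotic Bcl2 proteins and on the effectors Bax and Bak1, which permeabilise the outer mitochondrial membrane. Released cytochrome c then binds Apaf1 and activates caspase 9, while Diablo and Htra2 counter the inhibitor of apoptosis proteins. In the extrinsic pathway, death receptors activate caspase 8 through Fadd, and Cflar restrains that step.

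Several of these genes make proteins that differ by which exons are joined. The sequences below are coding stretches from the GENCODE M21 transcripts on GRCm38, written 5′ to 3′ on the strand of the gene. They are shown because the transcript shares reported further on separate the forms that carry them from the forms that do not. The exon of 20 bases in Bak1 (chr17:27021663-27021682, minus strand) is in capitals between 30 coding bases on each side, and the second line joins the same flanks without it.
Bak1-201: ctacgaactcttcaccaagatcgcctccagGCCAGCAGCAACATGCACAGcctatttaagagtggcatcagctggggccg
Bak1-202: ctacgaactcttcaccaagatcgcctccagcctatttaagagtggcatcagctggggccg
Bcl2-201 and Bcl2-202 share their coding start and end differently, in a second exon (chr1:106543267-106543398, minus strand) or by reading on past the first exon (chr1:106712284-106712304).
Bcl2-201: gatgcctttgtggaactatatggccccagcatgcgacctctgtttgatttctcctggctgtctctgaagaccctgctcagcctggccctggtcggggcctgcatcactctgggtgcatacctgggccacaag
Bcl2-202: gtaggtgcatgtctggttgaa
Aifm1-201 and Aifm1-202 use different second exons, of 143 bases (chrX:48504810-48504952, minus strand) and 131 bases (chrX:48503583-48503713).
Aifm1-201: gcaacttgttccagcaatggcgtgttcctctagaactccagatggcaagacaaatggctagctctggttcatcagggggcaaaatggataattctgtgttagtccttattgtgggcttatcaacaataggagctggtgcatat
Aifm1-202: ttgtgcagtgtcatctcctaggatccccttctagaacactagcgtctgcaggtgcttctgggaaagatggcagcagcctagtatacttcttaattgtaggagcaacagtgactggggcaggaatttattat
Bcl2l11-205 keeps 168 coding bases (chr2:128128757-128128924, plus strand) that Bcl2l11-203 splices out.
Bcl2l11-205: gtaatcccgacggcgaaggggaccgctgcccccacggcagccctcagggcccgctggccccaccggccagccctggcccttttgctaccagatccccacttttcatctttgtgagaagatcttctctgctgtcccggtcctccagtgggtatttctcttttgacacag

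Most of the apoptosis genes were present in the forebrain. In both libraries, 33 of 38 reached 1 TPM, against 60.7% of all protein-coding genes, and 20 of 38 reached 10 TPM, against 40.9%. Their median level was 12.3 TPM, and that of all protein-coding genes was 5.05 TPM. The list was chosen with earlier results of these data known, so these contrasts depend on that choice. Scarce relatives such as Casp14 (0.09 and 0 TPM) and Bcl2l10 (0 TPM in both libraries) are outside it. The levels of the 38 ran from Bax, at 173 and 195 TPM in replicates 2 and 1, to Casp1, at 0.68 and 0.34 TPM. In the order by mean level, the ranges of 18 of 37 neighbouring pairs overlapped, so those neighbours did not differ beyond their spread. The top 3 places, Bax, Bcl2l1 and Diablo, were free of overlap.

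**Figure D1:**
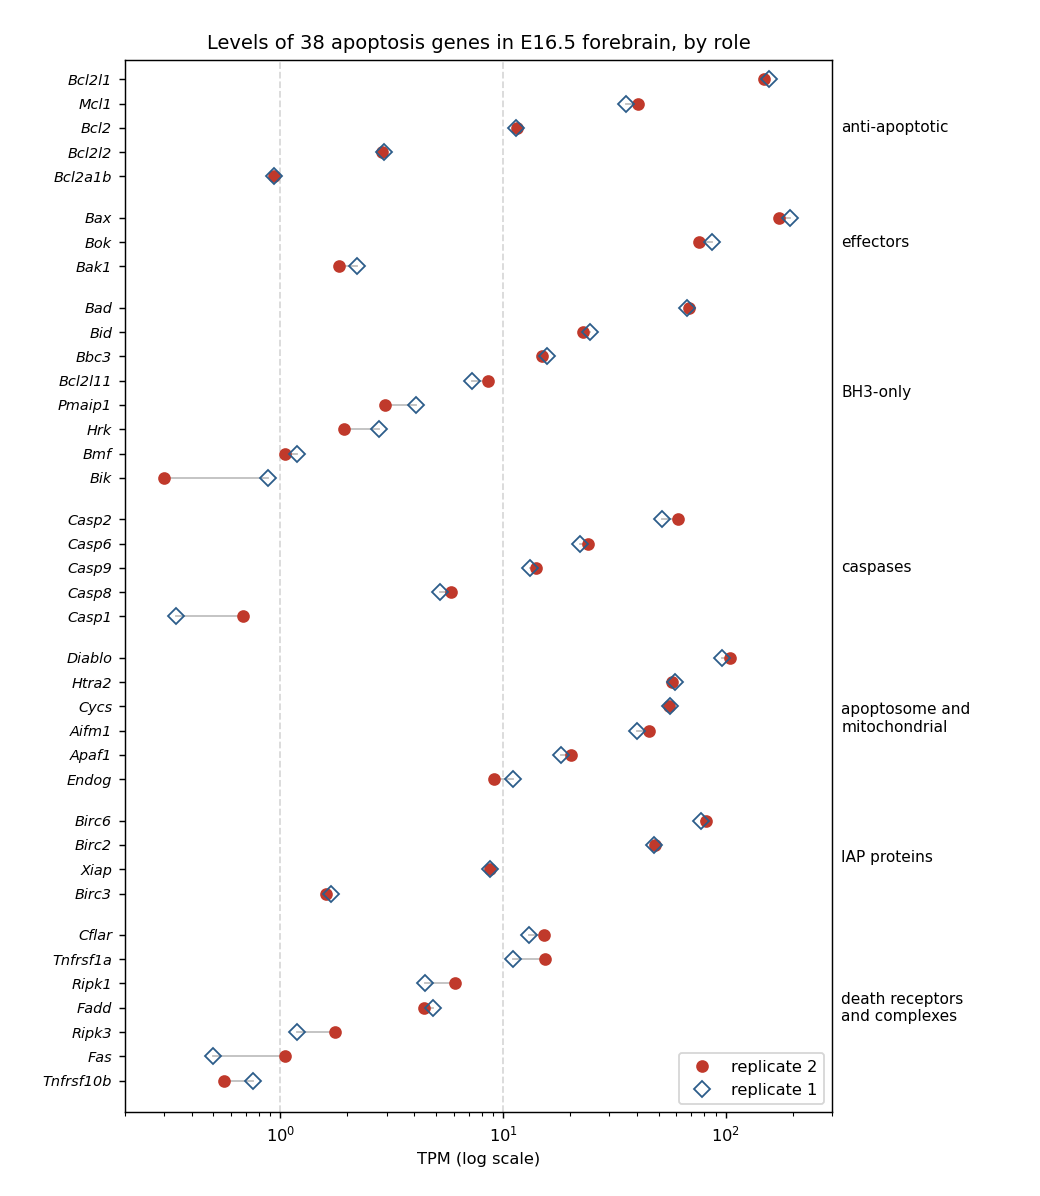
TPM of the 38 apoptosis genes on a log axis, grouped by role, with replicate 2 as filled circles and replicate 1 as open diamonds; dashed lines mark 1 and 10 TPM. In most rows the 2 libraries lie close together; the widest gaps are at the low end, as for Bik at 0.30 and 0.88 TPM.

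The anti-apoptotic proteins were led by Bcl2l1, which encodes Bcl-xL, a protector that young neurons need to survive (chr2:152780668-152831728). Bcl2l1 had 149 TPM in replicate 2, against 156 TPM in replicate 1. Mcl1, a short-lived relative that progenitors rely on, had 40.2 and 35.5 TPM in the same order. Bcl2, the founding member of the family (chr1:106538178-106714274), had 11.5 and 11.4 TPM. Within a library Bcl2l1 was thus 12.9-fold and 13.7-fold above Bcl2, a log2 ratio of 3.73 ± 0.06. Bcl2l2, which encodes Bcl-w, was at 2.85 and 2.91 TPM, and Bcl2a1b, an A1 family gene of blood cells, was listed at 0.94 TPM in both libraries. Bcl2a1b rests on 10.7 and 12.7 expected counts, and because its copies share sequence, its reads may be split among them. The 5 genes summed to 204 TPM in replicate 2, against 207 TPM in replicate 1, and Bcl2l1 made up most of both sums.

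The effectors were unequal. Bax (chr7:45461697-45466898), the highest of all 38 genes, had 173 TPM in replicate 2, against 195 TPM in replicate 1. Bak1, its partner in opening mitochondria (chr17:27019810-27029009), had 1.84 and 2.21 TPM. Bax was therefore 93.8-fold and 88.0-fold above Bak1, a log2 ratio of 6.51 ± 0.06. Bak1 rests on 56 and 77.8 counts, and its posterior means were 2.35 and 2.76 TPM. The SD of the ratio does not cover that choice of estimate. Bok, a less studied relative of both, had 75.8 and 86.6 TPM, below Bax by a log2 ratio of -1.18 ± 0.01. Set against the leading protector, Bax was 1.16-fold and 1.25-fold above Bcl2l1 (log2 ratio 0.27 ± 0.08), so the levels of these genes with opposite roles lay close together. The 3 effectors summed to 250 TPM in replicate 2 and 283 TPM in replicate 1.

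Among the BH3-only genes, Bad, whose protein is held inactive by growth factor signalling, was highest at 68.1 and 66.7 TPM in replicates 2 and 1. Bid, which links death receptors to mitochondria, followed at 22.7 and 24.6 TPM. Bbc3, the p53 target that encodes Puma, had 14.9 and 15.8 TPM, and Bcl2l11, which encodes Bim, had 8.54 and 7.24 TPM. Levels then dropped to Pmaip1, another p53 target known as Noxa, at 2.94 and 4.08 TPM, and to Hrk, a BH3-only gene of neurons deprived of growth factor, at 1.92 and 2.76 TPM. Bmf stood at 1.05 and 1.19 TPM and Bik at 0.30 and 0.88 TPM. Bmf depended on the estimate, since its posterior mean was 2.48 and 2.57 TPM, and Bik rests on 4 and 14 counts. Bcl2l11 was below Bbc3 by a log2 ratio of -0.96 ± 0.23, and Pmaip1 was below it by -2.15 ± 0.28, or by -1.37 ± 0.40 from protein-coding transcripts alone. The 8 genes summed to 120 TPM in replicate 2, against 123 TPM in replicate 1, and Bad had the highest share of both sums.

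Of the 5 caspases on the list, Casp2, an initiator that responds to DNA damage (chr6:42264985-42282508), was highest at 60.7 and 51.5 TPM. Casp6, an executioner linked to axon pruning, had 24.1 and 22.2 TPM. Casp9, the caspase of the apoptosome, had 14.1 and 13.2 TPM, and Casp8, the caspase of the death receptors, had 5.83 and 5.19 TPM. Casp1, the inflammasome caspase, had 0.68 and 0.34 TPM from 15 and 9 counts. Casp2 exceeded Casp9 by a log2 ratio of 2.03 ± 0.11, and Casp9 exceeded Casp8 by 1.31 ± 0.06. The 5 caspases summed to 105 and 92.5 TPM.

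The factors that act once mitochondria open were all at 9 TPM or more. Diablo, which frees caspases from inhibitor proteins (chr5:123509765-123524176), had 104 TPM in replicate 2 and 96.3 TPM in replicate 1. Htra2, a mitochondrial protease with a similar use, had 57.5 and 59.0 TPM, and Cycs, which encodes somatic cytochrome c, had 55.7 and 56.0 TPM. Protein-coding transcripts held only 28.8 and 22.8 TPM of Htra2, and 51.0 and 50.2 TPM of Cycs. Aifm1, a flavoprotein needed for respiration that can move to the nucleus in dying cells, had 45.1 and 40.1 TPM. Apaf1, the scaffold of the apoptosome (chr10:90989311-91082770), had 20.2 and 18.1 TPM, and Endog, a mitochondrial nuclease, had 9.09 and 11.1 TPM. Cycs was above Apaf1 by a log2 ratio of 1.54 ± 0.12, and Casp9 was below Apaf1 by -0.49 ± 0.05. From protein-coding transcripts alone, Cycs stood above Apaf1 by 2.13 ± 0.15, while Casp9 (12.2 and 10.5 TPM) and Apaf1 (12.5 and 10.6 TPM) were no longer apart, at -0.03 ± 0.03. The 6 genes summed to 292 and 281 TPM. Cycs has many processed copies in the mouse genome, whose share of its reads was not examined.

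The inhibitor of apoptosis proteins differed widely. Birc6, a giant ubiquitin ligase (chr17:74528295-74703356), was listed at 81.8 TPM in replicate 2, against 77.8 TPM in replicate 1. A single short transcript annotated as a retained intron gave most of that, and the protein-coding transcripts of Birc6 held 20.5 and 18.3 TPM. Birc2, which encodes cIAP1, had 48.0 and 47.7 TPM. Xiap, the direct caspase inhibitor (chrX:42059679-42109656), had 8.75 and 8.72 TPM. Birc3, which encodes cIAP2, had 1.61 and 1.69 TPM, and its posterior means were 2.71 and 2.59 TPM. Diablo, which antagonises Xiap, stood above it by a log2 ratio of 3.52 ± 0.08. From protein-coding transcripts alone, Xiap had 3.0 and 2.68 TPM and Diablo 88.3 and 82.6 TPM, a log2 ratio of 4.91 ± 0.05. The summed level of the 4 genes was 140 and 136 TPM over all transcripts, and averaged 61.8 TPM when protein-coding transcripts alone were summed.

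The listed death receptors of the extrinsic pathway and their complexes had the lowest summed level of all roles. Tnfrsf1a, the main receptor for tumour necrosis factor, had 15.5 TPM in replicate 2 and 11.0 TPM in replicate 1. Fas, the receptor of Fas ligand, had 1.05 and 0.50 TPM from 18 and 11 counts. Tnfrsf10b, the mouse receptor for the TRAIL ligand, had 0.56 and 0.75 TPM from 27 and 43 counts. Fadd, the adaptor, had 4.42 and 4.83 TPM, and Cflar, the inhibitor of caspase 8, had 15.3 and 13.1 TPM. Cflar exceeded Casp8 by a log2 ratio of 1.36 ± 0.04, and by 0.63 ± 0.04 when protein-coding transcripts alone were used. The kinases of the necrosis branch were Ripk1 at 6.07 and 4.45 TPM and Ripk3 at 1.76 and 1.19 TPM. The 7 genes summed to 44.6 TPM in replicate 2 and 35.9 TPM in replicate 1.

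All 24 pairs of related genes kept their order in both libraries, with a mean log2 ratio above 3 SD. With n = 2 this is a description of these pools, and an SD from 2 values is itself imprecise. The pairs were a chosen list, and the share among other gene pairs was not computed. From protein-coding transcripts alone 22 of 23 pairs were apart, Casp9 and Apaf1 being the exception, and Bax over Bak1 could not be given because Bak1 was then listed at 0.25 and 0 TPM. The first gene was higher in 16 pairs and lower in 8. The least steady pairs were those with a scarce gene. Fadd exceeded Fas 4.21-fold in replicate 2 and 9.66-fold in replicate 1, and Tnfrsf1a exceeded Tnfrsf10b 27.6-fold and 14.7-fold in the same order.

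**Figure D2:**
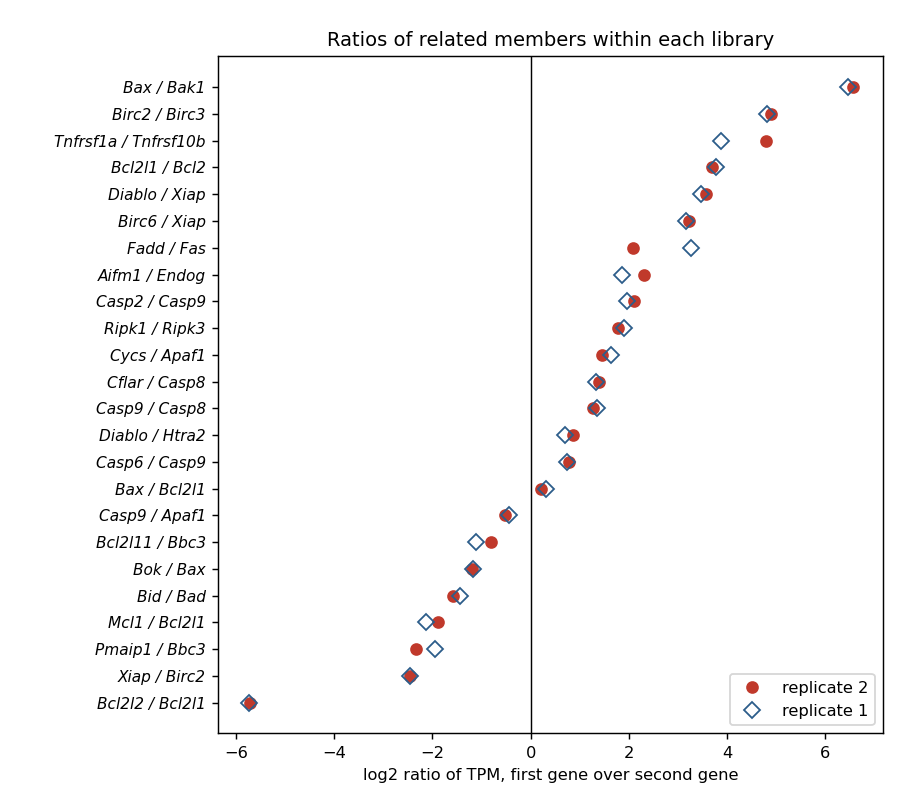
Log2 ratio of TPM of the first gene over the second, within replicate 2 (filled circles) and replicate 1 (open diamonds), for 24 pairs; the vertical line marks equality. Bax over Bak1 is the highest ratio, at 6.55 and 6.46, and Bcl2l2 over Bcl2l1 the lowest, at -5.71 and -5.74.

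The pools were then compared through counts scaled by trimmed mean (TMM) factors, as replicate 2 over replicate 1. Calls needed a difference of 2-fold or more, an average of 50 or more counts and a 95% exact Clopper-Pearson interval, which covers counting error only, that left out equality. Of the 32 members with enough counts none was called, against 1.37% of all 13927 such genes, and no p-value applies to 1 library per side. The median log2 ratio was 0.04, beside 0.01 over all genes. In replicate 2, 19 members were higher and 13 lower, beside 7251 higher and 6676 lower among all 13927 genes. Counting intervals lay above equality for 10 members, against 26.5% of all genes, and below it for 6, against 24.0%. The central 90% of all genes, from -0.57 to 0.39, held 30 of the 32.

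The members outside it or near its edges were few. Ripk1 had 371 and 301 counts in replicates 2 and 1, a log2 ratio of 0.54 (0.31 to 0.76). Birc3 had 60.2 and 50.1 counts, a ratio of 0.50 (-0.07 to 1.07), although its TPM was lower in replicate 2, since TPM also follows the mix of short and long transcripts. Tnfrsf1a had 462 and 426 counts, a ratio of 0.35 (0.16 to 0.55). Toward replicate 1 stood Hrk, with 160 and 274 counts and a ratio of -0.54 (-0.83 to -0.26), and Pmaip1, with 118 and 195 counts and a ratio of -0.49 (-0.83 to -0.15). Bax had a ratio of -0.19 (-0.27 to -0.11), Bok -0.18 (-0.28 to -0.09) and Bcl2l1 -0.10 (-0.16 to -0.05). All 4 caspases with enough counts had ratios above 0, from 0.17 to 0.24, with 3 intervals above equality, and the 4 inhibitor genes had ratios from 0.06 to 0.50, with 2 intervals above equality. With counts scaled to the spike-ins, the median of all genes moved to 0.56 and all 32 members, Bax, Bok and Bcl2l1 among them, came out higher in replicate 2.

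**Figure D3:**
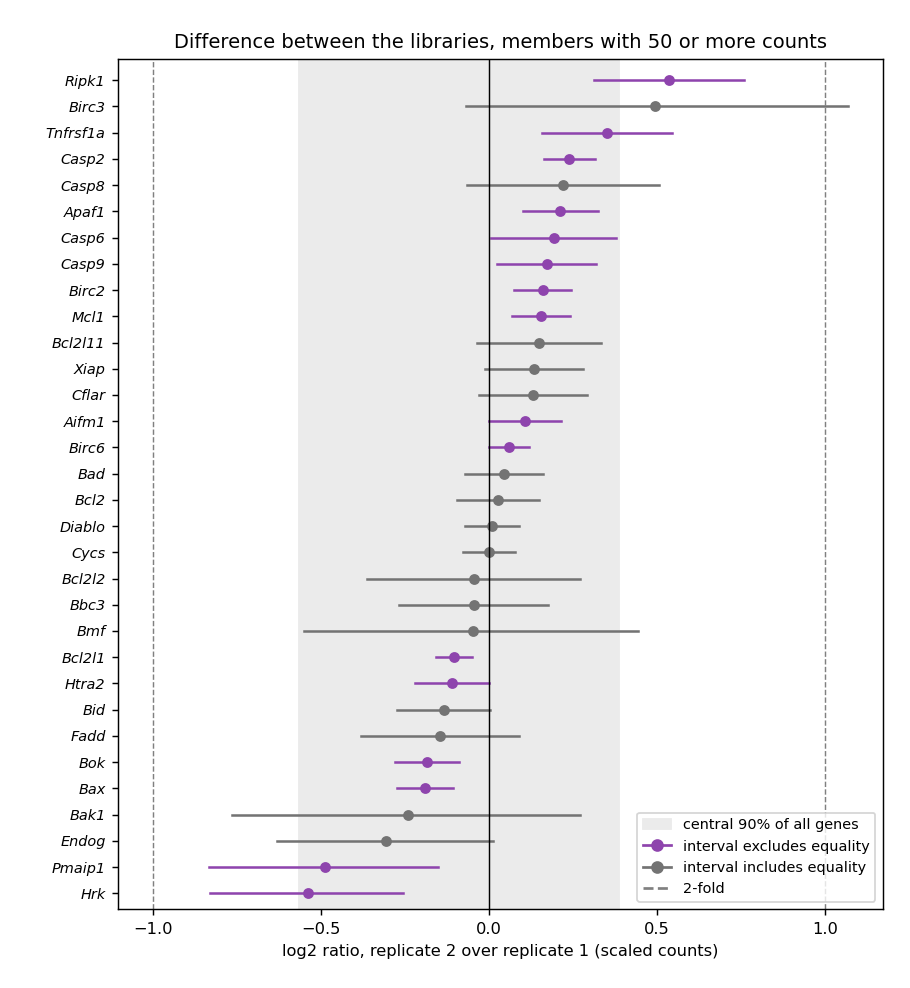
Log2 ratio of scaled counts, replicate 2 over replicate 1, with 95% counting intervals as bars, for the 32 members averaging 50 or more counts; dashed lines mark 2-fold and the grey band the central 90% of all genes. No member reaches 2-fold, and the ends are Ripk1 at 0.54 and Hrk at -0.54.

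Markers of cell types also shifted in the same comparison of scaled counts. All 7 meningeal fibroblast markers were higher in replicate 2, with summed levels of 485 TPM (replicate 2) against 210.4 TPM (replicate 1) and a median log2 ratio of 0.94. Microglia markers were higher in 10 of 10 (130.3 and 99.6 TPM, median 0.34), with 7 intervals above equality. Endothelial markers were higher in 8 of 8 (204 and 175 TPM, median 0.26) and progenitor markers in 9 of 9 (2336 and 1866 TPM, median 0.30). Pax6, a progenitor marker, was higher by scaled counts only, since its TPM was lower, at 33.87 and 35.05. Red cell markers were higher in 5 of the 5 with enough counts (5692 and 4523 TPM, median 0.35), with 4 intervals above equality. Of 8 markers of young neurons 6 were lower (3941 and 4336 TPM, median -0.23). Markers of other leukocytes summed to 9.74 and 2.89 TPM, and Cd3e was at 0 in both. The part of these shifts in the ratios of Ripk1, Tnfrsf1a, Hrk and the other members was not tested, and in bulk tissue fewer cells of a type and less RNA per cell cannot be told apart. The forebrain genes Emx1 (50.6 and 47.9 TPM) and Dlx2 (42.2 and 37.6 TPM) were present. The midbrain and hindbrain genes En1 (0.33 and 0.02 TPM) and Hoxb4 (0 in both) were at or near 0. These regional genes were chosen with earlier results of these data known, so they are no independent check of the label.

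Other genes of the pathway, 49 in 5 lists, gave 36 genes that reached 1 TPM and 28 that reached 10 TPM in each library. None of the 36 with enough counts was called different. Among further caspases and execution genes, Parp1, a DNA repair enzyme that caspases cleave, had 132 and 115 TPM. Casp14, a skin caspase, was lowest at 0.09 and 0 TPM. All 11 genes of the p53 axis and stress kinases reached 1 TPM, from Trp53 itself at 92.7 and 86.2 TPM and Jun at 67.9 and 60.1 TPM down to Foxo3 at 4.03 and 3.98 TPM. Of 10 ligands, receptors and adaptors 7 reached 1 TPM. Tnfrsf21, death receptor 6, had 54.7 and 54.6 TPM, above all the listed receptors of the extrinsic pathway, and Traf2, an adaptor, had 24.9 and 22.2 TPM. The ligand gene Tnf had no count in either library, which allows up to 3 counts in each. Of 11 further Bcl2 family and pore genes 7 reached 1 TPM, led by Bnip3l, a mitophagy receptor, at 479 and 433 TPM and Vdac1, an outer membrane channel, at 277 and 282 TPM, while Bcl2l10 had no count. Of 6 further inhibitors 4 reached 1 TPM, led by Tmbim6 at 237 and 215 TPM and Api5 at 122 and 108 TPM, with Naip2 lowest at 0.04 and 0.10 TPM.

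Transcript tables divide each gene among its annotated forms, and shares below are of the gene's TPM, in replicate 2 and then replicate 1. Of 22 members at 5 TPM or more with several transcripts, 18 had the same leading transcript in both libraries, against 92.1% of all such genes. Birc2 was least steady, with Birc2-204 at 84.5% and 37.5% and Birc2-202 at 0.0% and 37.9%, although both encode a coding sequence of 1836 bases. Apaf1, Bad and Casp8 also changed leader. Bad was led by Bad-201 in replicate 2 (44.8% and 39.2%) and by Bad-202 in replicate 1 (42.9% and 49.3%), and Casp8 by Casp8-201 (62.4% and 46.0%) and Casp8-202 (37.6% and 54.0%). Apaf1 was led by Apaf1-202 in replicate 2 (40.8% and 31.1%) and by Apaf1-204, a short form with no coding sequence, in replicate 1 (33.2% and 38.7%). Apaf1-204 held only 3.36% and 4.11% of the counts of Apaf1, because TPM gives a short transcript more weight per read.

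For several members the shares of transcripts that encode different proteins could be given, at the level of RNA. Bcl2-201, whose printed end encodes the membrane anchor, held 68.1% and 65.3% of Bcl2. Bcl2-202, which lacks it, held 31.9% and 34.7% of TPM and 15.3% and 17.0% of counts. Bcl2-202 has 1 exon that reads on past the first exon of Bcl2-201. Total RNA holds unspliced molecules, and their part in the share of Bcl2-202 was not tested. Aifm1-201 held 67.7% and 68.3% of Aifm1, and Aifm1-202, with the other second exon, held 8.09% and 13.6%. A form of Aifm1 with an alternative second exon has been described in brain. Bcl2l11-205, with a coding sequence of 588 bases, held 60.0% and 64.5% of Bcl2l11. Bcl2l11-203, without the printed 168 bases, held 4.81% and 0%, from 22.1 and 0 expected counts. Other forms with a shorter coding sequence were Bcl2l11-201 (330 bases) at 0% and 9.67% and Bcl2l11-202 (273 bases) at 5.86% and 8.15%. Casp2-201 held 84.9% and 83.4% of Casp2, and Casp2-209, a form with an extra exon of 61 bases (chr6:42276870-42276930) annotated for nonsense-mediated decay, was at 0 in both. That exon is also in Casp2-203, annotated as a retained intron, at 6.85% and 6.93% of TPM but 1.59% and 1.64% of counts.

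Cflar-201, which encodes the long form of the caspase 8 inhibitor with a coding sequence of 1443 bases, led Cflar at 30.2% and 31.96%. Cflar-205, whose coding sequence is also 1443 bases, held 16.9% and 18.3%. By counts Cflar-205 was ahead, at 43.4% and 44.9% against 36.8% and 37.0% for Cflar-201. Cflar-204, with a shorter coding sequence of 645 bases, held 13.4% and 10.2% of TPM and 10.2% and 7.35% of counts. Cflar-208, a processed transcript of 378 bases, held 25.4% and 18.7% of TPM but 2.82% and 1.97% of counts. Bcl2l1-201 led Bcl2l1 at 60.5% and 66.2%, with Bcl2l1-202 second at 25.5% and 20.7%, and both have a coding sequence of 699 bases. Bbc3-201 led Bbc3 at 58.0% and 52.6%, ahead of Bbc3-203, a retained intron form, at 37.8% and 44.8%. Htra2-201 led Htra2 at 39.3% and 34.7%, ahead of the retained intron form Htra2-207 at 24.6% and 25.2%. The other leaders were all annotated as protein-coding and held from 74.0% (Diablo-203 in replicate 1) to 100% of their gene. They were Bid-201, Bok-201, Casp6-201, Casp9-201, Cycs-202, Diablo-203, Mcl1-201 and Tnfrsf1a-201.

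Of 29 members at 1 TPM or more with several transcripts, 3 were led in both libraries by a form not annotated as protein-coding, against 7.53% of all such genes. The minimum of 1 TPM was chosen after the transcripts of Bak1 had been seen. Birc6-206, a retained intron form of 1030 bases, held 57.1% and 50.5% of Birc6 TPM but 15.3% and 13.6% of its counts. Xiap-207, a processed transcript with no coding sequence, held 57.3% and 61.9% of Xiap TPM and 56.2% and 67.2% of its counts. Total RNA includes unspliced and partly spliced molecules, and their part in these shares was not tested. Of the 33 members at 1 TPM or more, 13 had all their TPM in protein-coding transcripts in both libraries, against 44.1% of all protein-coding genes at that level. For 9 of the 13 the annotation lists no other kind of transcript, which fixes their share.

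**Figure D4:**
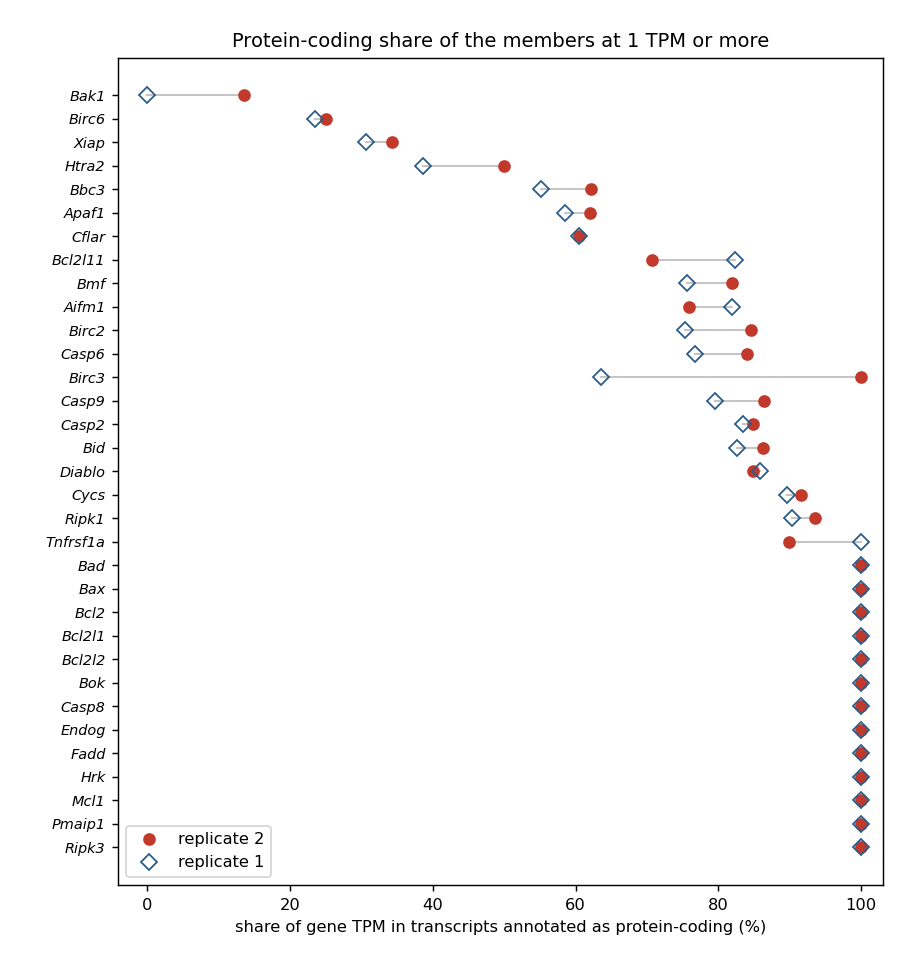
Share of gene TPM in transcripts annotated as protein-coding, in percent, for the 33 members at 1 TPM or more, with replicate 2 as filled circles and replicate 1 as open diamonds. Bak1, Birc6 and Xiap are under 50% in both libraries, and 13 members are at 100% in both.

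The remaining case was Bak1, the only member led in both libraries by a form annotated for nonsense-mediated decay, which 1.64% of all such genes had. Bak1-201 held 86.4% of Bak1 TPM in replicate 2 and 100% in replicate 1, and Bak1-202, the form that encodes the full protein, held 13.6% and 0%. Bak1-201 contains the 20-base exon printed in capitals, whose length is not a multiple of a codon. Its annotated coding sequence is 453 bases and stops 89 bases before the last exon junction, whereas that of Bak1-202 is 627 bases and ends in the last exon. Neural splicing of a frame-shifting Bak1 microexon has been described in mouse. The split rests on few reads, 47.1 and 77.8 expected counts for Bak1-201 and 8.88 and 0 for Bak1-202, and by posterior means Bak1-201 held 61.3% and 72.8%. Bak1 overlaps Ggnbp1 on the opposite strand (115 and 144 counts), and whether counting used strand is not given in the sources used here.

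**Figure D5:**
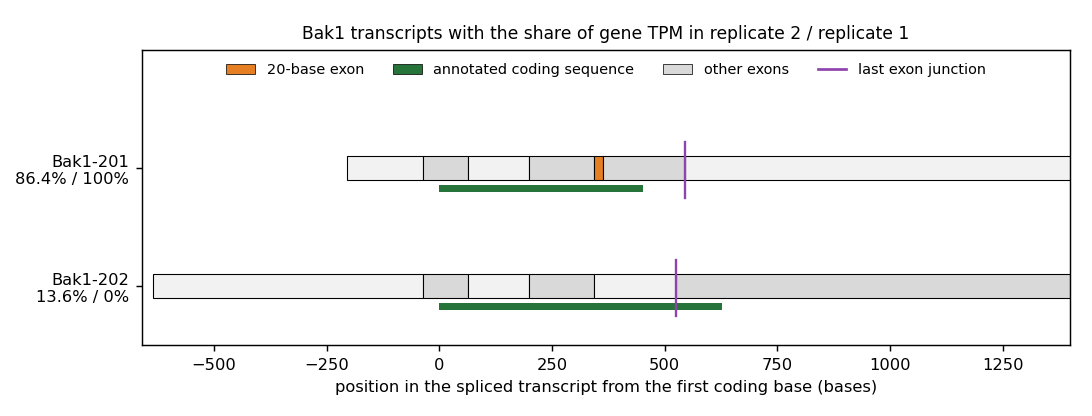
Exons of Bak1-201 and Bak1-202 along the spliced transcript, in bases from the first coding base (the far end of the last exon is not drawn), with the 20-base exon in orange, the annotated coding sequence in green and the last exon junction in purple. The coding sequence of Bak1-201 stops before that junction and that of Bak1-202 beyond it; shares of gene TPM, for replicate 2 and then replicate 1, stand beside each name.

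Other overlaps bear on single values. Bid overlaps Bcl2l13 (2095 and 2273 counts), Bad overlaps Gpr137 (867 and 1091 counts), Htra2 overlaps Aup1 (1475 and 1909 counts) and Loxl3 (312 and 280.3 counts), Endog overlaps Spout1 (1579 and 1981 counts) and Ripk1 overlaps Serpinb6a (605 and 696 counts), each on the opposite strand. On the same strand, Bcl2 overlaps Gm37053 (10 and 37 counts), Ripk1 overlaps Gm17084 (19.6 and 14.5 counts) and Casp8 overlaps Gm37760 (11 and 9 counts). The other genes overlapping a member on the same strand, such as Gm20521 with Bcl2l2, were listed at 0 in both libraries. How many reads of these genes could belong to the neighbour was not tested.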

How the data were processed

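Total RNA of 2 forebrain pools was sequenced, and each library has a gene and a transcript table. Reads were placed on mm10 with GENCODE M4, per the submitters' deposited notes, and the software for this is not given in the sources used here. Per library and feature the authors deposited expected counts, TPM and FPKM and posterior means of counts and TPM, per the file headers. The deposited TPM sum includes the spike-ins, which took 4.10% of TPM in replicate 2 and 5.93% in replicate 1. The deposited percent of each transcript in its gene was recomputed from TPM.

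Names, types and coordinates came from GENCODE M21 (GRCm38) by identifier. Counts were rounded and scaled with edgeR 4.0.16 in R 4.3.3 (TMM), with a prior count of 0.5 in ratios. Depth was 26957198 and 31211128 counts, and intervals and the floor of 3 counts cover counting error only. DESeq2 1.42.0 gave size factors for an alternative, beside other scalings, minimums, priors, posterior means and each library left out. Other steps used Python 3.11.15, scipy 1.17.1 and matplotlib 3.10.9. The calls between libraries were tested on simulated data with counting noise alone. A pair of genes was apart when its ratio had 1 sign throughout and a mean above 3 SD.

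The members and lists were chosen with earlier results of these data known, and so were the regional genes Emx1, Dlx2, En1 and Hoxb4. Named were all members, the 2 highest and the lowest gene of each pathway list, leading transcripts and second ones at 20% or more in both libraries. A gene that this rule takes is not reported here. Bak1-201, Bak1-202, Aifm1-202, Bcl2l11-201, Bcl2l11-202, Bcl2l11-203, Cflar-204, Cflar-205, Cflar-208, Casp2-203 and Casp2-209 were chosen after their values were seen.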

Additional observations from a re-analysis of the deposited data

How the results depend on the processing

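In place of 33 members at 1 TPM, minimums of 0.5 and 2 TPM gave 36 and 28, and the other alternatives gave 31 to 34. In place of 20 members at 10 TPM, minimums of 5 and 20 TPM gave 24 and 14, and the other alternatives gave 18 to 21. The median level was 11.2 to 12.8 TPM with 1 library left out, 14.2 TPM over members of at least 1 TPM, and 9.54 TPM from protein-coding transcripts alone. That last alternative, chosen after seeing the data, gave sums of 110 TPM for BH3-only genes, 83.3 for caspases, 217 for apoptosome and mitochondrial factors, 61.8 for inhibitor proteins and 33.4 for death receptors. Posterior means gave 201.2 TPM for anti-apoptotic genes. Rescaling to Ensembl genes gave 216 TPM for them, 128 for BH3-only genes, 301 for apoptosome and mitochondrial factors and 145 for inhibitor proteins. Role sums without one replicate spanned 204 to 207, 250.2 to 283, 120.5 to 123, 92.5 to 105, 281 to 292, 136 to 140.1 and 35.9 to 44.6 TPM in the order of the report.

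Spike-in scaling called 2 members, Ripk1 and Birc3, 2-fold higher in replicate 2 and gave a member median log2 ratio of 0.59, with 0.56 for all genes. It turned Bax to 0.36, Bok to 0.37, Bcl2l1 to 0.45 and Htra2 to 0.44. Intervals that excluded equality were lost for 1 member with DESeq2 size factors, 3 with total counts and 2 with spike-ins. They were gained without a change of sign for 0, 2 and 9. Gains with a change of sign are not in these counts, as for Bid, which went from -0.13 to 0.42 with spike-ins. The median was 0.012 with total counts and 0.084 with a minimum of 200 counts. No other alternative called a member. All 24 pairs were apart with a pseudocount of 1 or 0.1 and with posterior means, and 22 of 23 from protein-coding transcripts, which moved 6 by over 1.5 times and turned none. Leading transcripts were the same in 16 of 19 members at 10 TPM, 24 of 29 at 1 TPM, 19 of 22 by posterior means and 15 of 19 among protein-coding transcripts. At a minimum of 5 TPM, 2 members were led in both libraries by a form not annotated as protein-coding, since Bak1 lies below it. No paired analysis was possible because there is 1 group. Members under 50 mean counts, 6 in all, and Bak1 are limited by depth.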
